A study of Homo sapiens with 4 samples.

Results

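Chromosome 19 carries the largest collection of zinc finger genes in the human genome, set in blocks between long gene-rich arms. Contacts between these blocks and the ribosomal RNA genes (rDNA) were described here from 4C libraries of K562, an established human erythroleukemia cell line. The regions were those of the 4 single-replicate libraries on chromosome 19 whose midpoint lay at least 500 kb from either end of the chromosome (hg38). They numbered 6409 of the 197703 regions of the series, with 1888 and 1805 in untreated replicates 1 and 2 and 1270 and 1446 in hemin replicates 1 and 2. Untreated cells were compared with cells grown for 108 h with 50 µM hemin, which drives K562 cells towards erythroid differentiation, and both groups came from the same line. The zinc finger clusters were taken as 3 blocks: 19500000 to 24300000 (the short-arm cluster), 35000000 to 38000000 (the middle long-arm cluster) and 52000000 to 58100000 (the distal long-arm cluster).

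Zinc finger proteins of this kind bind DNA through tandem fingers, each held together by a zinc ion, and many carry a KRAB domain that recruits the corepressor TRIM28. They silence transposable elements and their genes multiplied by repeated local duplication, so that neighbours in a cluster resemble each other in sequence. The clusters are marked by the heterochromatin mark H3K9me3 over many of their gene ends. The rDNA arrays lie on the short arms of the acrocentric chromosomes and build the nucleolus. 4C records which other DNA lay near a chosen viewpoint, here the rDNA intergenic spacer, by cutting fixed chromatin with EcoRI (recognition sequence GAATTC), ligating the ends and sequencing the partners.

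The blocks held zinc finger genes as their name says. They spanned 13.9 Mb and held 348 protein-coding genes, and 172 genes of all types there had symbols that begin with ZNF. These numbered 43 in the short-arm cluster, 34 in the middle and 95 in the distal long-arm cluster. The rest of the chromosome spanned 43.7 Mb. It held 112 such genes, with 56 on the short arm, 47 on the middle long arm and 9 on the proximal long arm. It included the centromeric stretch from 24.3 to 28 Mb, which held 0 protein-coding genes and 6684 of the 14441 EcoRI sites of the rest. Because 99.6% ± 0.021 (SD, n = 2) of untreated and 99.8% ± 0.030 of hemin regions there were wholly repeat sequence, the comparisons of clusters and rest are given with this stretch and without it.

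The untreated libraries held 31721628 and 34000240 reads and the hemin libraries 19548906 and 20577487, so both hemin libraries were shallower. Of these, 15698106 and 16769647 untreated and 9158290 and 9707373 hemin reads lay more than 10 kb from the viewpoint copies on chromosome 21. Numbers of regions and reads given below are not scaled for depth unless stated. Replicates of a group differed by more than sampling noise. The mean chi-square per contact place on chromosome 19 was 11.1 between the untreated and 16.6 between the hemin libraries. The medians were far lower, at 1.01 and 1.21. Replicates were therefore counted as 1 sample each. The study's methods call them biological replicates, but the labels do not say whether they came from separate cultures, and p-values measure only the spread between these libraries. With 2 libraries against 2, a two-sided exact permutation test cannot give a p under 0.333.

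Some regions are shown first, because their reads recur in the results below. Many regions end at an EcoRI site, in capitals, and often at a CATG, the site of the second enzyme, FaeI. Not all do. In the untreated libraries an EcoRI site lay within 100 bases of 44.9% and 45.7% of short-arm regions. In the centromeric stretch it was 85.0% and 86.8%. The sequences are those of the deposited regions, read along the plus strand of hg38.
LAIR1 intron, chr19:54366946-54366985, untreated only: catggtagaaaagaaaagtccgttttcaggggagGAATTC
ZNF257 intron, chr19:22086475-22086513, all 4 libraries: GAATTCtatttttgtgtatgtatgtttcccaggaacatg
near ZNF227, chr19:44196693-44196755, untreated only: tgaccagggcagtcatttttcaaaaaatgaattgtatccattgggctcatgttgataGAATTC
near TEX101, chr19:43426393-43426441, hemin only: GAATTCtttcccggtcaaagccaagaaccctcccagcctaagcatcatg
These 4 hold 1 EcoRI site each, and the middle 31 bases of each occur once in hg38.

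The share of all contact regions that lay on chromosome 19 was lower after hemin, at 3.66% ± 0.089 (SD, n = 2) in untreated and 2.81% ± 0.15 in hemin libraries. The groups did not overlap (exact permutation p = 0.333). Without the centromeric stretch the shares were 1.50% ± 0.0058 and 1.53% ± 0.028, a difference of 0.030 percentage points in the other direction. Reads on the chromosome made up 1.25% ± 0.019 of the untreated and 1.06% ± 0.00066 of the hemin libraries, and it was lower by 0.175 percentage points without that stretch as well. Much of this difference lay in 1 region of the short arm, at chr19:12136093-12136187 in a ZNF20 intron. It was 98.9% repeat sequence and held 0 EcoRI sites. Its middle 31 bases occur 5542 times in hg38, so its reads may belong to other copies. With the 500 kb ends of the chromosome included, the shares of reads were 1.27% ± 0.020 and 1.07% ± 0.00039. Leaving the most-read region out of each library then gave 1.11% ± 0.013 and 1.02% ± 0.0016. The ratio of hemin to untreated read share, 0.843 over the whole chromosome, ranked 24 of 24 chromosomes from the highest, and its ratio of region shares, 0.768, ranked 22. With that region left out the ratio of read shares was 0.926, which ranked 21 against the full ratios of the other chromosomes. Without the centromeric stretch the ratio of region shares was 1.02 and ranked 12.

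The 3 clusters did not behave alike. In the short-arm cluster the number of contact regions was 73 and 66 before and 84 and 88 after hemin, so that both hemin libraries stood above both untreated ones. Its density was 14.5 ± 1.03 regions per Mb (SD, n = 2) in untreated and 17.9 ± 0.59 in hemin cells. In the middle long-arm cluster the number was 70 and 64 in untreated and 38 and 43 in hemin libraries, or 22.3 ± 1.41 and 13.5 ± 1.18 regions per Mb. In the distal long-arm cluster it was 126 and 133 in untreated and 89 and 116 in hemin libraries, or 21.2 ± 0.81 and 16.8 ± 3.13 per Mb. The groups did not overlap in any of the 3, each with an exact permutation p of 0.333.

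The difference between the short-arm and the long-arm clusters was compared directly. The region density of the short-arm cluster over that of both long-arm clusters was 0.706 and 0.635 before hemin and 1.25 and 1.05 after it. The log2 ratio was 0.78 higher after hemin (exact permutation p = 0.333, the smallest that 2 against 2 can give). The same ratio for reads was 0.866 and 0.862 in untreated and 1.37 and 1.39 in hemin libraries, 0.67 higher on the log2 scale. Both ratios lay under 1 in both untreated libraries and over 1 in both hemin libraries.

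**Figure D1:**
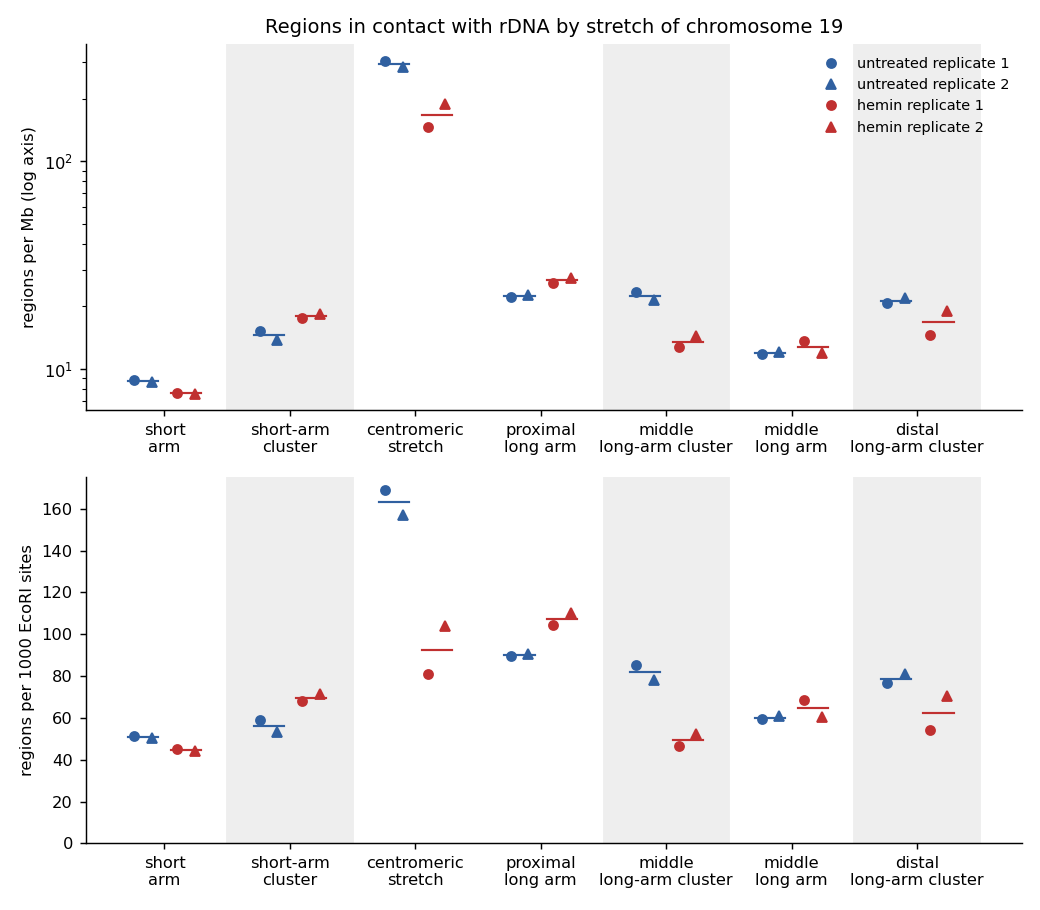
Number of contact regions in each stretch of chromosome 19, per Mb in the upper panel (log axis) and per 1000 EcoRI sites in the lower panel; each point is 1 library, coloured by group, with the marker giving the replicate, and horizontal bars are group means. Of the stretches plotted, which leave out the short tail of the chromosome, the centromeric one stands highest per Mb in all 4 libraries; per site it stands highest in the untreated libraries, at 163, and below the proximal long arm after hemin, at 92.5 against 107. The short-arm cluster and the proximal long arm are higher after hemin, and both long-arm clusters are lower.

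The gene-rich arms differed from stretch to stretch too. On the short arm from 0.5 to 19.5 Mb, the least dense stretch, the regions numbered 167 and 164 in untreated and 146 and 144 in hemin libraries, or 8.71 ± 0.11 and 7.63 ± 0.07 per Mb. On the proximal long arm from 28 to 35 Mb, which is poor in genes, with 42 protein-coding genes in 7.0 Mb, they numbered 156 and 158 in untreated and 182 and 192 in hemin libraries. The densities there were 22.4 ± 0.20 and 26.7 ± 1.01 per Mb. On the middle long arm from 38 to 52 Mb they numbered 165 and 168 in untreated and 190 and 167 in hemin libraries, and the groups overlapped (exact permutation p = 0.667). The centromeric stretch held 1129 and 1050 regions in untreated and 541 and 696 in hemin libraries, 294 ± 15.1 and 167 ± 29.6 per Mb.

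Counted per EcoRI site, the stretches of the untreated libraries kept their order but for the short-arm cluster and the middle long arm, which changed places. The centromeric stretch held 163 regions per 1000 sites in untreated and 92.5 in hemin libraries, and the proximal long arm 90.2 and 107. The middle and distal long-arm clusters held 81.7 and 78.8 in untreated and 49.4 and 62.3 in hemin libraries. The short-arm cluster held 56.2 and 69.6, the middle long arm 60.2 and 64.5, and the short arm 51.0 and 44.7.

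Set against the rest of the chromosome, the clusters were less dense in regions in every library. The ratio of cluster to rest density was 0.523 and 0.536 in untreated and 0.627 and 0.648 in hemin libraries. Without the centromeric stretch the ratio was 1.58 and 1.54 in untreated and 1.17 and 1.41 in hemin libraries, so the clusters were then denser than the arms in 4 of 4 libraries (exact sign-flip p = 0.125, the smallest that 4 libraries can give). The hemin-minus-untreated difference of the log2 ratio was 0.27 with the centromeric stretch and -0.28 without it (exact permutation p = 0.333 for both). The direction of this comparison therefore rested on the 3.7 Mb of the centromeric stretch.

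The clusters hold 266 EcoRI sites per Mb, against 194 in the rest without the centromeric stretch. Counted per EcoRI site, the ratio without that stretch was 1.15 and 1.12 in untreated libraries and 0.854 and 1.03 in hemin libraries. Counting only EcoRI sites whose flanking 31 bases on both sides occur once in hg38, the share of sites met by a region in the clusters over that in the rest without the centromeric stretch was 1.35 and 1.40 in untreated and 0.906 and 1.08 in hemin libraries. Its log2 value was 0.47 lower after hemin than before (exact permutation p = 0.333). Both hemin libraries again lay below both untreated ones.

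**Figure D2:**
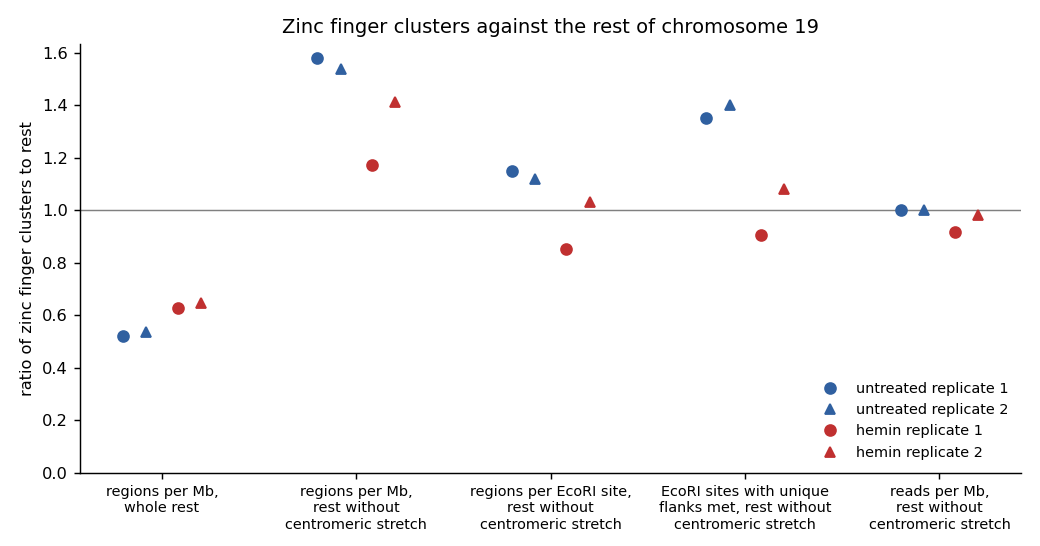
Ratio of zinc finger clusters to the rest of chromosome 19 for regions per Mb or per EcoRI site, EcoRI sites met and reads per Mb; each point is 1 library and the grey line marks a ratio of 1. Ratios of regions per Mb lie between 0.523 and 0.648 with the centromeric stretch in the rest and between 1.17 and 1.58 without it. Without it, those per EcoRI site lie between 0.854 and 1.15 and those of unique EcoRI sites met between 0.906 and 1.40.

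Reads told a different story from regions, since a few regions hold most reads. Reads were scaled to the reads of the library outside the viewpoint copies (RPM), and the clusters held 211 ± 1.01 RPM per Mb in untreated cells and 171 ± 6.62 after hemin. In the rest it was 219 and 188, and without the centromeric stretch 211 and 181. The ratio of clusters to rest was 0.955 and 0.973 in untreated and 0.878 and 0.943 in hemin libraries, and its log2 value was 0.08 lower after hemin (exact permutation p = 0.333). With the repeat-filtered regions, which give 1 value per group, it was 0.62 higher. Leaving the most-read region of each side out of each library gave ratios of 1.10 and 1.11 in untreated and 0.889 and 0.960 in hemin libraries. In the untreated libraries, whether the clusters had fewer or more reads per Mb than the rest thus turned on single regions. Both hemin ratios lay under 1 either way. Leaving out the centromeric stretch as well as these regions gave hemin ratios of 0.935 and 1.01.

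On the short arm the read density was 195 RPM per Mb in untreated and 125 in hemin libraries. But 1 region, the repeat in the ZNF20 intron described above, held 42.3% to 44.1% of the untreated reads of the short arm. It held a smaller part of the hemin reads, 17.9% in replicate 1. Without that region the short arm held 111 ± 1.23 and 102 ± 2.52 RPM per Mb (SD, n = 2), and the rest without the centromeric stretch 171 ± 0.35 and 170 ± 2.00. The short-arm cluster went from 191 to 209 RPM per Mb, and the proximal long arm from 323 to 403. The middle long-arm cluster went from 236 to 150, the distal long-arm cluster from 214 to 152, the middle long arm from 175 to 146 and the centromeric stretch from 307 to 269.

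**Figure D3:**
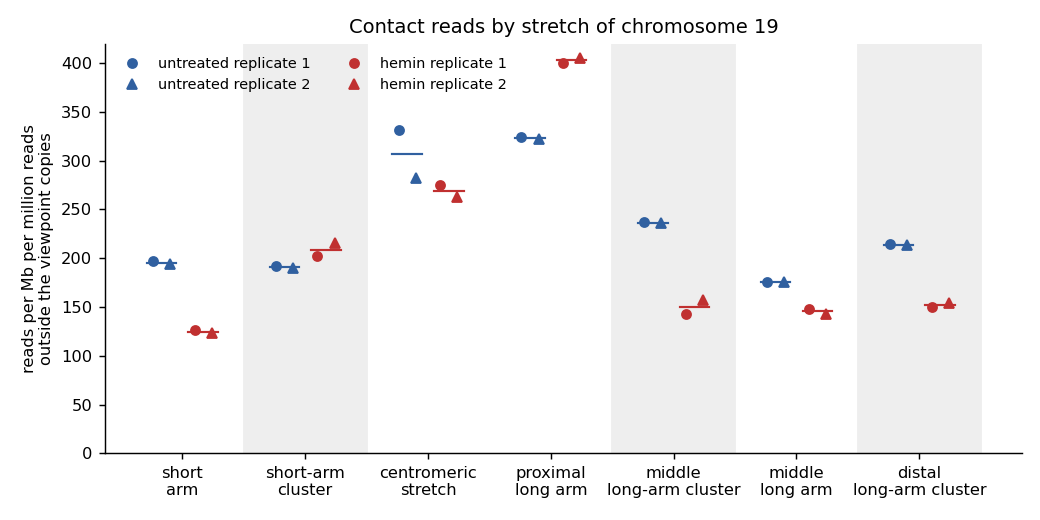
Reads per Mb in each stretch, scaled to the reads of the library outside the viewpoint copies (RPM per Mb), along chromosome 19; each point is 1 library and horizontal bars are group means. The proximal long arm and the short-arm cluster are higher after hemin, and the short arm and both long-arm clusters are lower. On the short arm the means are 195 and 125 as plotted and 111 and 102 without its most-read region.

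Each stretch was also tested as a whole, as a feature added to the genome-wide fit of 1 Mb bins with edgeR. In that fit 39.9% of bins were higher and 41.0% lower after hemin, so a call was the common outcome. On the log2 scale the clusters together fell by 0.71 (SE 0.03, adjusted p = 0.00033), and the rest without the centromeric stretch fell by 0.63 (SE 0.02, adjusted p = 0.00023). The middle and distal long-arm clusters fell by 1.06 and 0.90 on the log2 scale (adjusted p = 0.00043 and 0.00018). The short arm fell by 1.05 (adjusted p = 0.00017). Without its most-read region it fell by 0.53 (SE 0.04, adjusted p = 0.00086), and the rest without the centromeric stretch fell by 0.41 (SE 0.03, adjusted p = 0.00067). The short-arm cluster had a log2 fold change of -0.28 (adjusted p = 0.0048) with the TMM scaling of edgeR, and one of +0.13 (adjusted p = 0.059) when libraries were scaled by their total reads, so its direction depended on the scaling. The same held for the proximal long arm, at -0.08 (adjusted p = 0.026) and +0.32.

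Scaling by total reads moved the log2 fold changes of all stretches up by a median of 0.40, and those of 100 kb bins and genes by 0.25 and 0.18. The stretches are therefore best read relative to each other. When a region counted as 1 whatever its reads, a setting where 7.91% of 1 Mb bins were higher and 9.36% lower, the middle and distal long-arm clusters fell by 0.88 and 0.49 (adjusted p = 0.0013 and 0.016). The short-arm cluster then had a log2 fold change of +0.15 (adjusted p = 0.55).

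Overlapping regions of the 4 libraries were merged into contact places, of which the clusters held 568. Of these, 201 had reads in both untreated libraries alone, 141 in both hemin libraries alone, 11 in all 4 libraries and 195 in 1 library. In the rest without the centromeric stretch, 337 of 1125 places were found in both untreated libraries alone, 348 in both hemin libraries alone and 32 in all 4. In the centromeric stretch, 1298 of 2255 places were found in 1 library. A cluster region was found again in the other replicate for 86.1% ± 1.37 (SD, n = 2) of untreated and 68.8% ± 7.95 of hemin regions. It was found in the other group for 10.7% ± 0.63 and 9.50% ± 1.98.

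Contact places with at least 20 reads over the 4 libraries were tested, 319 of the 568 in the clusters. Over the genome 39.1% of the tested places were higher and 38.9% lower after hemin. In the clusters 99 were higher and 151 lower, the latter being 47.3%. The short-arm cluster had 42 higher and 41 lower of 98, the middle long-arm cluster 17 and 36 of 75, and the distal long-arm cluster 40 and 74 of 146. In the rest without the centromeric stretch 40.0% of 638 were higher and 42.6% lower, and in the centromeric stretch 37 and 248 of 402. The tested cluster places with reads in 1 group only made up 92.8%, against 93.1% in the rest without the centromeric stretch and 87.0% over the genome, so most calls compared a group of 0 reads with one that held reads.

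In bins of 100 kb, 38.9% of the genome's tested bins were higher and 32.7% lower. The clusters had 33 higher and 47 lower of 114 tested bins, and the rest without the centromeric stretch 90 and 92 of 235. The calls of places, bins and genes all come from the same reads.

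The places with the lowest fold changes in the clusters were held by both untreated libraries and no hemin library. The LAIR1 intron shown above held 1662 and 1766 reads in untreated and 0 and 0 in hemin libraries, at least 294-fold lower against a limit of 3 reads per library (edgeR adjusted p = 0.00067). LAIR1 is an inhibitory collagen receptor of leukocytes in the distal long-arm cluster. A place 247 bases from KIR3DL2, a receptor of natural killer cells, held 1557 and 1742 reads and then 0 and 0.

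The opposite pattern was as sharp. An intergenic place in the short-arm cluster, 5541 bases from ZNF98, held 0 and 0 reads in untreated and 761 and 773 in hemin libraries, at least 497-fold higher (edgeR adjusted p = 0.00067). The ZNF257 intron was one of few strong places held by all 4 libraries, with 536 and 612 reads in untreated and 719 and 712 in hemin libraries (log2 fold change 1.28, SE 0.08, edgeR adjusted p = 0.0014). The place of the clusters with the most reads, at chr19:23885965-23886159, held 1988 and 2189 in untreated and 0 and 94 in hemin libraries, and its adjusted p was 0.16.

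On the arms, both of the places with the largest changes lay on the middle long arm. The intergenic place 10792 bases from ZNF227 held 4261 and 4527 reads in untreated and 0 and 0 in hemin libraries, at least 753-fold lower. The one 7796 bases from TEX101, which encodes a germ cell surface protein, held 0 and 0 in untreated and 2229 and 2382 in hemin libraries, at least 1492-fold higher (edgeR adjusted p = 0.00067 for each). These 2 places lie within 1 Mb of each other and went opposite ways.

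Reads were then given to genes, a region being widened by 2.5 kb and assigned only where it met exactly 1 gene. Over the genome 39.5% of the tested genes were higher and 34.3% lower after hemin. Of the 302 zinc finger genes of chromosome 19 (symbols beginning with ZNF, ZFP, ZSCAN, ZIM, ZIK or ZKSCAN), 88 held reads in any library, 67 were tested, 25 were higher and 24 lower. In the clusters 15 were higher and 17 lower of 46 tested, and in the rest 10 and 7 of 21. With symbols beginning with ZNF alone, 14 were higher and 15 lower of 40 in the clusters, and of the other 53 tested genes there 15 rose and 23 fell. Zinc finger genes as a group were thus called in both directions, at shares of 37.3% and 35.8%, which lie beside 39.5% and 34.3% over all genes.

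**Figure D4:**
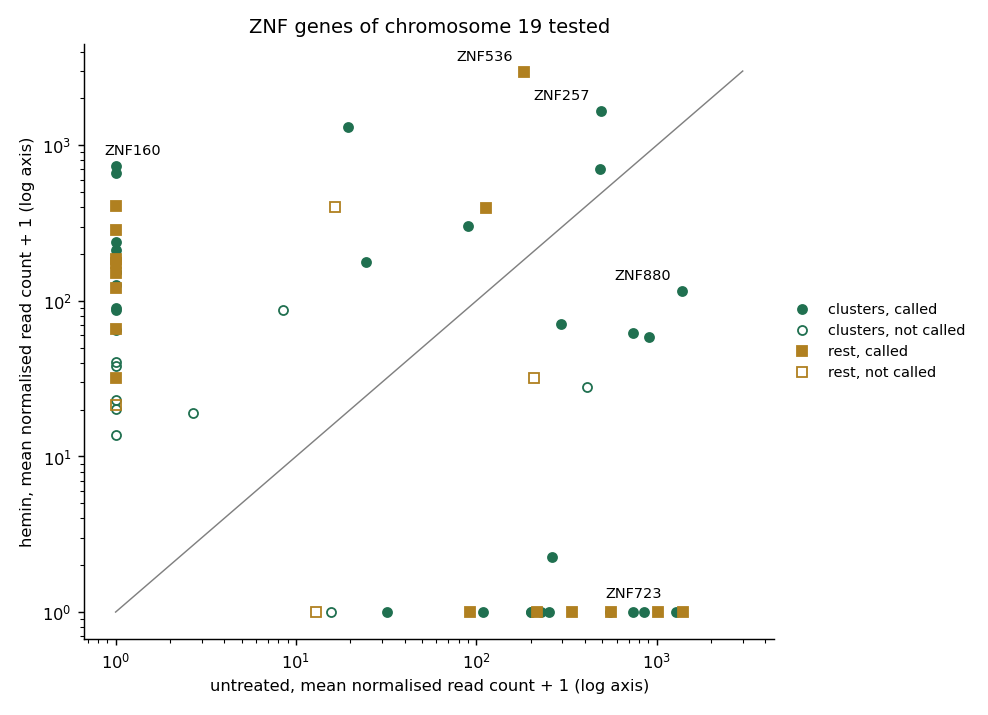
Mean normalised read count of each tested gene with a ZNF symbol in untreated against hemin libraries, both axes log with 1 added; filled points passed the edgeR test, open points did not, and circles stand for the clusters and squares for the rest. Most points lie along one axis, with reads in 1 group alone, and few lie near the diagonal.

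The ZNF genes that lost contacts most were ZNF45-AS1, ZNF723, ZNF541, ZNF528, ZNF460-AS1 and ZNF507, each at 0 reads in both hemin libraries. ZNF723, in the short-arm cluster, held 1488 and 1499 reads in the untreated libraries, at least 354-fold lower after hemin (edgeR adjusted p = 0.0010). ZNF45-AS1, an antisense RNA gene beside ZNF45 on the middle long arm, held 1554 and 1719 untreated reads. ZNF528 held 979 and 995, all in 1 region of its coding exon. Between 1 and 2 regions per untreated library made up each of these 6 genes.

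The ZNF genes that gained contacts most were ZNF160, ZNF808, ZNF234, ZNF44, ZNF66 and ZNF208, each at 0 reads in both untreated libraries. ZNF160, in the distal long-arm cluster, held 567 and 661 reads in the hemin libraries, at least 287-fold higher (edgeR adjusted p = 0.0010), and its reads lay in a coding exon. ZNF808, also in the distal long-arm cluster, held 486 and 621. ZNF234, on the middle long arm, held 317 and 360. ZNF66 and ZNF208, in the short-arm cluster, held 193 and 204 and 190 and 158. Other genes of the short-arm cluster went the opposite way, and ZNF98 and ZNF99 held 310 and 279 and 226 and 306 untreated reads and 0 after hemin.

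A smaller set held reads in both groups and so gives a fold change. ZNF257 held 536 and 612 reads in untreated and 1370 and 1385 in hemin libraries (log2 fold change 1.76, SE 0.08, edgeR adjusted p = 0.0010). ZNF880, in the distal long-arm cluster, held 1506 and 1717 in untreated and 93 and 97 in hemin libraries (-3.59, SE 0.08, adjusted p = 0.0010). ZNF536, a brain-expressed repressor on the proximal long arm, held 112 and 320 in untreated and 2433 and 2465 in hemin libraries (4.01, SE 0.64, adjusted p = 0.012). In the middle long-arm cluster, ZNF573 held 29 and 14 in untreated and 1056 and 1109 in hemin libraries, and ZNF382 held 1061 and 1066 and then 47 and 49. ZNF420 held 573 and 551 in untreated and 537 and 633 in hemin libraries, which after scaling was a log2 fold change of 0.54 (adjusted p = 0.013).

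Replicates could disagree where reads were in 1 library alone. ZNF91, which represses SVA and other primate retroelements, held 0, 0 and 0 reads in the untreated libraries and hemin replicate 1 and 320 in hemin replicate 2, and it was not called (adjusted p = 0.22). LINC02987, in the centromeric stretch, held 2593 reads in untreated replicate 1 and 0 in the other 3 libraries (adjusted p = 0.24).

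Outside the zinc finger genes, the strongest losses were in EPS15L1, LAIR1, DEDD2, PTPRS, TMEM161A and CPAMD8. EPS15L1, an endocytic adaptor of the short arm, held 2494 and 2670 reads in untreated libraries. No read was given to it alone in the hemin libraries, but regions that also met another gene held reads there, up to 211 in hemin replicate 2. PTPRS, a receptor tyrosine phosphatase, held 1151 and 1282 untreated reads and 0 after hemin. The strongest gains were in ADGRE1, LINC01532, LINC01531, CYP4F22, CEACAM22P and RLN3. ADGRE1, an adhesion receptor known as a macrophage marker in mouse, held 0 and 0 reads in untreated and 1242 and 1385 in hemin libraries, at least 614-fold higher (edgeR adjusted p = 0.0010). CYP4F22, a lipid hydroxylase of the skin barrier, held 835 and 810 hemin reads, and RLN3, the gene of the neuropeptide relaxin-3, held 557 and 602.

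In the rest of the chromosome, the genes given the most reads, by the rule that a region met 1 gene alone, were LINC01837, LINC00662 and ZNF536, the first 2 of them long non-coding RNA genes. LINC01837 held 3302 and 3598 reads in untreated and 1034 and 1229 in hemin libraries (log2 fold change -1.12, SE 0.08, edgeR adjusted p = 0.0017). LINC00662, in the long-arm part of the centromeric stretch, held 1366 and 1457 in untreated and 1510 and 1660 in hemin libraries (0.66, SE 0.05, adjusted p = 0.0018). Its most-read place went the other way, from 1297 and 1339 reads to 335 and 357 (log2 fold change -0.97, edgeR adjusted p = 0.00068). The gene was met by 4 regions in each untreated and 11 in each hemin library. Of the 42 LINC genes of the chromosome, 10 held reads, and 5 of 9 tested were higher and 2 lower, against 39.5% higher and 34.3% lower over all genes.

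Other gene families of the chromosome were counted in the same way, and each count is to be read beside the 39.5% higher and 34.3% lower over all genes. Of 25 killer cell and leukocyte immunoglobulin-like receptor genes, all in the distal long-arm cluster, 4 held reads and 3 were tested. LAIR1 was lower, and KIR2DL4, with 471 and 479 reads, and LILRA2, with 199 and 176, were higher, from 0 reads in untreated libraries. Of 9 NLRP genes, which encode innate immune sensors and oocyte proteins in the same cluster, 7 held reads. NLRP4 rose (123 and 110 reads in untreated, 178 and 181 in hemin libraries), NLRP13 rose (0 and 2, then 191 and 227), and NLRP5 fell (119 and 118, then 0 and 0). Of 39 pregnancy-specific glycoprotein and CEACAM genes on the middle long arm, 13 held reads, 2 of 10 tested were higher and 5 lower. Of 35 olfactory receptor genes, 7 held reads and 5 were tested, of which OR7A17 and OR10H2 were higher and OR7H1P lower. None of 17 kallikrein genes held a read, and 1 of 139 microRNA genes and 1 of 63 ribosomal protein genes did.

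Of 18 genes on the list of erythroid regulators and of heme and iron genes of chromosome 19, which included KLF1, EPOR, FTL, HAMP, PRDX2 and BLVRB, 1 held reads. It was NFIX, a transcription factor of blood progenitors, with 0 and 0 reads in untreated and 48 and 53 in hemin libraries, at least 23.6-fold higher (edgeR adjusted p = 0.0050). Between 48.1% and 50.5% of the reads outside the viewpoint copies met exactly 1 gene, so a gene listed at 0 reads may have been met by regions that also met another gene. The limit taken for 0 reads, 3 reads per library, covers counting error only.

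Cluster regions lay in ZNF genes more often than the length of these genes alone would give. Of the cluster regions, 42.7% ± 0.65 (SD, n = 2) in untreated and 42.5% ± 0.52 in hemin libraries met a ZNF gene, and these genes cover 36.1% of the clusters. Exons were met by 21.1% ± 0.87 and 19.9% ± 2.72 of the regions and cover 15.3%. The share within any gene was 79.5% ± 1.12 in untreated and 72.7% ± 0.88 in hemin libraries, against 71.7% of length. On the arms without the centromeric stretch, 66.9% ± 2.35 and 59.8% ± 0.13 of the regions lay in genes, which cover 72.0% of that length. EcoRI sites are not spread evenly, and these shares were not corrected for that. Sites in ZNF coding sequence were compared next with sites outside coding sequence.

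The coding sequence of ZNF genes is unusually rich in EcoRI sites. Within the clusters it held 591 sites, or 207 per 100 kb, against 26.6 per 100 kb over the clusters as a whole and 22.8 in other coding sequence there. Of these 591 sites, 333 (56.3%) lay in the 9 letters AGAATTCAT, read on either strand (ATGAATTCT on the other). On chromosome 19 as a whole 1011 of 18141 EcoRI sites (5.57%) lay in those letters, and on chromosomes 1 to 22, X and Y 52525 of 847401 (6.20%). The letters end the finger and come just before the conserved linker that joins one finger to the next. Of the 333, 196 were followed at once by ACTGG.

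Windows of 60 bases around sites of this kind that were met by a contact region are shown, since they place contacts in the finger-coding exon itself. They were read from hg38 along the strand that carries the letters, which are in capitals.
ZNF880, chr19:52385172-52385231, plus strand, untreated only: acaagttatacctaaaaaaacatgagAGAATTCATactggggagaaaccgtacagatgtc
ZNF528, chr19:52415691-52415750, plus strand, untreated only: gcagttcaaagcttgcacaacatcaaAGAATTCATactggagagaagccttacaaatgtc
ZNF585A, chr19:37153250-37153309, minus strand, untreated only: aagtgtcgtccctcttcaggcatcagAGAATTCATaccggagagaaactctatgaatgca
ZNF493, chr19:21423237-21423296, plus strand, hemin only: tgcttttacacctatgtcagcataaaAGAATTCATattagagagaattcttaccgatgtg
ZNF568, chr19:36950019-36950078, plus strand, hemin only: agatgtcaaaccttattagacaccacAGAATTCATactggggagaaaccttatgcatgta
ZNF234, chr19:44156828-44156887, plus strand, hemin only: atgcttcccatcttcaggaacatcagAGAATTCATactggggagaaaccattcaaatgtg
The place at the ZNF880 site held 1397 and 1585 reads in untreated and 0 and 0 in hemin libraries. That at ZNF585A held 954 and 1036 and then 0 and 0. At ZNF493 the place held 0 and 0 reads in untreated and 703 and 743 in hemin libraries, and at ZNF568 0 and 0 and then 148 and 176. The 6 windows share the 9 letters because they were chosen for them.

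ZNF coding sites were met by contacts less often than other sites of the same clusters. A site counted as met where a region overlapped the site itself. Of the 591, 10 and 9 were met in untreated libraries and 9 and 13 after hemin, or 16.1 ± 1.2 and 18.6 ± 4.8 per 1000 sites (SD, n = 2). Of the 3043 cluster sites outside coding sequence, 39.1 ± 0.46 per 1000 were met in untreated and 33.4 ± 3.95 in hemin libraries. The difference was -18.9 per 1000 sites on average (SD 4.83 over libraries) and was negative in 4 of 4 libraries (exact sign-flip p = 0.125, the smallest possible). Restricting both to sites with unique flanks, which left 290 of the ZNF coding sites, gave -15.6 per 1000, again in 4 of 4. On the arms without the centromeric stretch 2 of 4 libraries had a negative difference, with a mean of -3.38 per 1000.

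**Figure D5:**
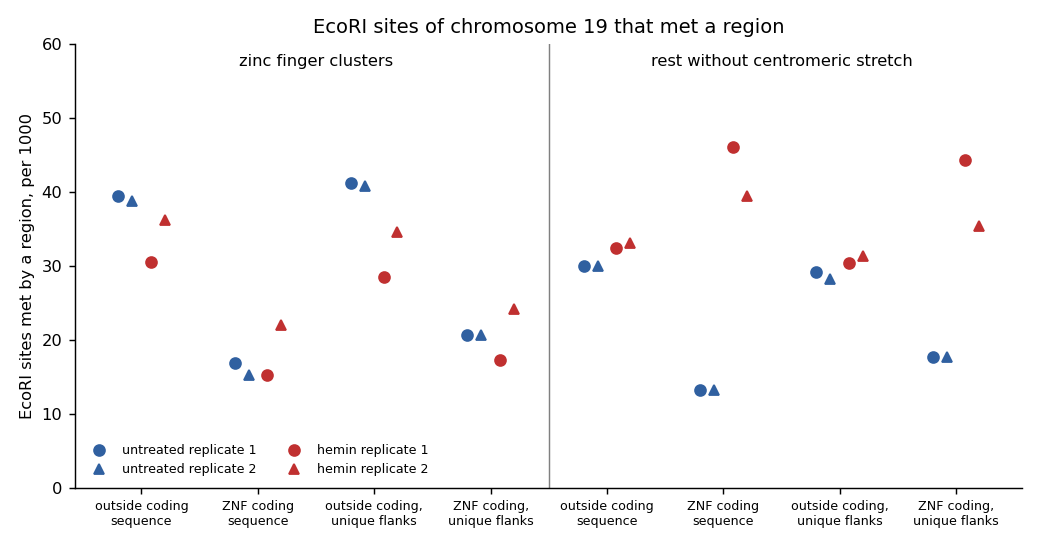
EcoRI sites met by a contact region per 1000 sites of each kind, in the clusters at left and in the rest without the centromeric stretch at right; each point is 1 library. ZNF coding sites in the clusters lie below sites outside coding sequence in all 4 libraries.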

How the data were processed

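Chromatin contacts of rDNA were measured in K562 cells, untreated or after hemin, with 2 libraries per group. The authors fixed cells, cut with EcoRI and FaeI, amplified from primers in the rDNA spacer and sequenced paired reads. They trimmed adapters with cutadapt 3.5, kept reads with a 4C adapter, aligned with BWA 0.7.17-r1188 (SAMtools 1.14, bedtools 2.29.1) to hg38 and wrote regions with their own scripts. The deposited files give, per library, the count of reads in each region without normalization. A deposited signal per group, the authors' mean of both replicates after removal of repeat reads, was used as an alternative only. No duplicate removal or mapping quality filter is stated, so repeat reads may sit at any copy.

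The region sequences were compared with hg38 and were identical for 100.0% of the 6489 regions of chromosome 19. Columns without a sample numbered 0. Regions within 10 kb of the viewpoint copies were set aside. Densities were compared by exact permutation tests over libraries. Places, 100 kb bins, genes (GENCODE) and stretches were fitted over the whole genome with edgeR 4.0.16 (R 4.3.3) by glmQLFTest after TMM scaling, features of at least 20 reads in total, adjusted by Benjamini-Hochberg with a threshold of 0.05. DESeq2 1.42.0 with a local trend was an alternative. Shares, densities and stretch fits without the most-read region were added after seeing the data. In simulated counts, 200 features were changed 4-fold or 32-fold, among 7973 genes, 49417 places or 17769 bins. There edgeR recovered 48% of genes changed 4-fold and 75% of those changed 32-fold, with 3.91% of calls false. For places it was 19% and 65% with 1.18% false, and for bins 34% and 54% with 2.22% false. Of the calls of DESeq2, 51.9% were false for genes and 73.0% for places and for bins. In the data 78.0% of tested places were called, so these false shares need not carry over.

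Genes named were, among those past the threshold with normalized counts averaging 100 or more and groups that did not overlap, the 6 highest and 6 lowest with ZNF symbols and the 6 highest and 6 lowest of the others, with the 3 of most reads in clusters and in rest, and any erythroid or iron gene with reads; places followed the same rule with 4 at each end. Some of these places are not reported here. ZNF98, ZNF99, ZNF382, ZNF420, ZNF573, ZNF91 and LINC02987, the family members named and the genes of the printed finger windows were chosen after their values were seen. The members, lists and settings were chosen with earlier results of these data known. Where a group was at 0, the limit was set at 3 reads in each library, which covers counting error only. Same-numbered replicates did not deviate together (r = -0.02, 0.003 and 0.02 for places, bins and genes).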

Additional observations from a re-analysis of the deposited data

How the results depend on the processing

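Leaving out the centromeric stretch turned the direction of the cluster to rest ratio of region density, and that of its hemin-minus-untreated difference. For read density the difference stayed negative, at -0.08. The untreated read ratios moved from 0.955 and 0.973 to 1.0003 and 1.0016, and the hemin ratios stayed under 1, at 0.916 and 0.980. For region density, the hemin-minus-untreated difference of the log2 ratio was -0.28 without it, -0.28 without it and per EcoRI site, -0.27 in thinned libraries, -0.44 with regions of at least 10 reads, -0.34 with repeat-filtered regions and -0.28 with the most-read region left out; these combinations were chosen after seeing the data. It was 0.53 with repeat-filtered regions and the stretch kept, and -0.24 for the middle long-arm cluster alone. Its mean over all libraries was 0.50 without the stretch, then 0.045, 0.50, 0.44, 0.23 and 0.50 under the same combinations, and -1.32 with repeat-filtered regions and the stretch kept.

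For read density the difference was 0.62 with repeat-filtered regions, 0.62 with these and without the stretch, and 0.34 for the short-arm cluster alone. Its mean was 0.22 per EcoRI site, 0.016 without the most-read region, 0.10 without it and the stretch, -0.46 with repeat-filtered regions and -0.39 with these and without the stretch. Repeat-filtered values have no replicate spread. The share of regions differed by 0.030 percentage points without the stretch.

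Leaving out each library gave 0.24 to 0.29 and -0.84 to -0.73 for the difference and mean of region density, -0.13 to -0.03 and -0.11 to -0.06 for those of read density, -0.958 to -0.748 and -0.203 to -0.176 percentage points for the shares of regions and reads, and -0.74 to -0.67, -0.64 to -0.60 and -0.66 to -0.61 for the clusters, the rest and the rest without the centromeric stretch as windows. Places called ranged from 592 to 1029 (1062 with all libraries), bins from 235 to 277 (284), genes from 158 to 188 (195) and stretches from 6 to 7 (7). The low counts of places came without an untreated library, when 64.0% to 64.5% of calls were higher, against 36.8%.

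With the replicate block, 0 places, 0 bins and 4 genes were called by edgeR (390, 200 and 109 at an unadjusted p under 0.05), while DESeq2 called 1115, 312 and 218; the numbers share only a label. Counting each region once gave 17 bins, 0 genes (110 unadjusted) and 4 stretches, and a log2 fold change of -0.10 for the rest without the centromeric stretch. It was +0.15 for the short-arm cluster and +0.10 for the proximal long arm, and +0.13 and +0.32 with scaling by total reads. Bins of 1 Mb gave 51 calls, a minimum of 100 reads 585 places and assignment to every gene 400 genes. Of 30 named genes, 29 missed the threshold with the block and 14 with regions counted once.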

Other observations

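The 500 kb at each end of chromosome 19 were set aside above. They held between 18.0 and 26.0 regions per Mb at the short-arm end and between 14.0 and 24 at the long-arm end. The short-arm end held 9 and 12 regions in untreated and 10 and 13 in hemin libraries, with 748 and 869 and then 251 and 336 reads. The long-arm end held 12 and 10 regions in untreated and 7 and 7 in hemin libraries, with 1969 and 1920 and then 419 and 411 reads. Reads were fewer after hemin at both ends. Scaled to the reads outside the viewpoint copies, the long-arm end held 251 and 229 RPM per Mb in untreated and 91.5 and 84.7 in hemin libraries.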
